A study of Mus musculus with 4 samples.

Results

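The report concerns 10 genes of the enzymes that make serine, proline and asparagine and that carry one-carbon units on folate, namely *Phgdh*, *Psat1*, *Psph*, *Shmt1*, *Shmt2*, *Mthfd1*, *Mthfd1l*, *Mthfd2*, *Aldh18a1* and *Asns*. They were taken by gene symbol from a table of 23420 symbols, and all 10 were present. They were selected on the AZ20 comparison itself, since earlier results of these data, in which targets of the transcription factor ATF4 were lower with AZ20, were known when the genes were picked. Their differences between conditions are therefore given as a description, and no p-value is read for them. The study asked whether ongoing activity of ATR, a kinase of the DNA damage response, keeps the sex chromosomes silent in male meiosis, and the enzymes were not part of that question. The RNA came from FACS-sorted pachytene spermatocytes of wild-type C57BL/6 (B6) mice, 23 weeks of age. The isolated cells were cultured for 24 h with DMSO (Ctrl, 2 libraries) or with 10 μM AZ20, an ATR inhibitor dissolved in DMSO (AZ20, 2 libraries). Each library was made from 15000 cells, and cells of a mouse were split between both conditions, so same-numbered libraries form pairs. The culture temperature is 34 °C in the labels and 32 °C in the methods.

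Serine is made from the glycolytic intermediate 3-phosphoglycerate in consecutive steps catalyzed by PHGDH, PSAT1 and PSPH. The serine hydroxymethyltransferases, SHMT1 in the cytosol and SHMT2 in mitochondria, then pass a carbon of serine to tetrahydrofolate and leave glycine. In mitochondria, MTHFD2 oxidizes this unit and MTHFD1L then releases it as formate. MTHFD1 uses formate in the cytosol for purine, thymidylate and methionine synthesis. ALDH18A1 starts proline synthesis from glutamate, and ASNS makes asparagine from aspartate and glutamine. In somatic cells, several of these genes are known targets of ATF4, the transcription factor of the amino acid response, which binds a composite element of ATF and C/EBP half-sites.

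Transcripts were measured as TPM, which is scaled for gene length and therefore allows levels of different genes to be compared. The sequenced reads behind each value were recovered from the TPM, and the libraries held 14607870 to 21095572 reads on genes. Of 23420 genes, 10316 passed the filter, a TPM averaging more than 1 in at least one condition, and were tested, among them 8 of the 10 enzymes. *Phgdh* and *Mthfd1l* were below this filter in both conditions. The 7 of 8 pachytene markers found in the table summed to 9814 to 10179 TPM in each library, with *Sycp3* at 2061 TPM or more. Somatic markers were scarce. The 8 Sertoli cell markers summed to 0.0984 and 0.155 TPM in Ctrl and 0.570 and 0.651 TPM in AZ20, with *Sox9*, *Wt1*, *Fshr* and *Gata1* at 0 in every library, and *Cyp17a1*, *Cyp11a1*, *Insl3*, *Hsd3b1* and *Lhcgr* of the 6 Leydig cell markers were also at 0. The other Leydig cell marker, *Star*, had 0.866 and 2.31 TPM in Ctrl and 1.60 and 2.11 TPM in AZ20, which overlapped. The 4 endothelial markers summed to 0.510 and 0.520 TPM in Ctrl and 1.14 and 1.66 TPM in AZ20, with *Kdr* at 0 in every library. The 8 round spermatid markers summed to 661 and 430 TPM in Ctrl and 1097 and 451 TPM in AZ20, and these ranges overlapped, but the sum was higher with AZ20 in both replicate pairs. With the replicate block (a fit in which same-numbered libraries are paired), *Prm1*, a protamine gene, rose with AZ20 (log2 difference 1.11, limma adjusted p = 0.000766), and *Tnp2* and *Tnp1*, transition protein genes, had log2 differences of 0.87 and 0.88 (limma adjusted p = 0.00766 and 0.0279), under 2-fold. Voom with the block had 2 of the 8 at an adjusted p under 0.05, *Prm1* and *Tnp2* (voom adjusted p = 0.0173 and 0.0340). Without the block limma called 0 of the 8, with 0 at an unadjusted p under 0.05. Voom without the block had 0 at an adjusted p under 0.05 and 1 at an unadjusted p under 0.05. In bulk RNA, fewer cells of a type and less RNA per cell cannot be told apart.

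The 10 enzymes covered a wide range of levels in Ctrl. *Mthfd2* was the most abundant with 38.9 ± 11.1 TPM (SD, n = 2), above 74.7% of the tested genes. *Psph* (24.9 ± 3.21 TPM, SD, n = 2), *Psat1* (20.9 ± 2.31 TPM, SD, n = 2) and *Aldh18a1* (17.2 ± 1.46 TPM, SD, n = 2) followed. *Shmt2* (8.76 ± 1.44 TPM, SD, n = 2) and *Shmt1* (8.14 ± 2.21 TPM, SD, n = 2) lay close to the median tested gene, at 9.22 TPM, and their ranges overlapped. *Asns* (1.36 ± 0.332 TPM, SD, n = 2) and *Mthfd1* (1.18 ± 0.0134 TPM, SD, n = 2) were low and overlapped each other. *Phgdh* and *Mthfd1l* were at the bottom, with ranges that overlapped and reached 0. The other neighbours in this order did not overlap between the Ctrl libraries.

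**Figure D1:**
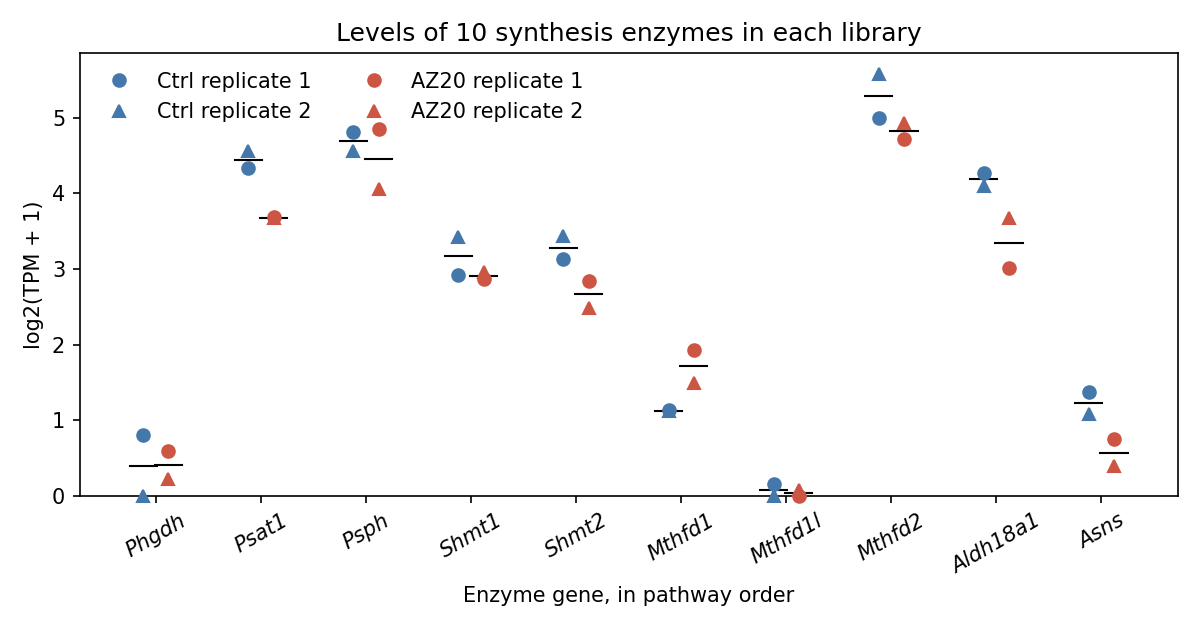
Level of each enzyme gene as log2(TPM + 1), in pathway order. Each point is a library, blue for Ctrl and red for AZ20, circles for replicate 1 and triangles for replicate 2, and black lines are means of 2 libraries. *Phgdh* and *Mthfd1l* sit near 0 in every library, while *Mthfd2*, *Psph*, *Psat1* and *Aldh18a1* are the highest in Ctrl.

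To show the DNA around the start sites, the promoters of the 5 enzymes whose AZ20 libraries were both below both Ctrl libraries were taken from RefSeq (GRCm38.p6), from 250 bases before to 50 bases after the start. Capitals mark letters of the ATF4 composite element (TGATGNAA), the cAMP response element (TGACGTCA), the E box (CACGTG) or the CCAAT box (CCAAT), each searched on both strands. The sequences run 5′ to 3′ on the strand of the gene.
Asns, chr6:7693160-7693459, minus strand: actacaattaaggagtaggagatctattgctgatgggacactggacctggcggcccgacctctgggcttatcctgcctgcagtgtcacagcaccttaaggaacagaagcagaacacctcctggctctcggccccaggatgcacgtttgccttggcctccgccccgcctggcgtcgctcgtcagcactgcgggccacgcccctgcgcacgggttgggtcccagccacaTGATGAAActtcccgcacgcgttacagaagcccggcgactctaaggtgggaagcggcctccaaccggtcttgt
Aldh18a1, chr19:40588414-40588713, minus strand: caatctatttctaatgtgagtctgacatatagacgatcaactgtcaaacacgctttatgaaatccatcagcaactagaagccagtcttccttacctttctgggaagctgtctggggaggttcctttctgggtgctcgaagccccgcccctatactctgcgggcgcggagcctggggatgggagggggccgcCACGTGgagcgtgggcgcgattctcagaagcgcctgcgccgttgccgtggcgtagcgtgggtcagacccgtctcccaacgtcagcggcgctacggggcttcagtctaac
Psat1, chr19:15925010-15925309, minus strand: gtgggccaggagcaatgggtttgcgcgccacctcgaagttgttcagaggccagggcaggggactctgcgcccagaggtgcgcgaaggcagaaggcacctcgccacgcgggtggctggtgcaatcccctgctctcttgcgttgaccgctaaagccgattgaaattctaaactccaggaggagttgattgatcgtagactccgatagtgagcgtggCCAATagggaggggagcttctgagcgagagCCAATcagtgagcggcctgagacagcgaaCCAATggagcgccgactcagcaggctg
Shmt2, chr10:127522395-127522694, minus strand: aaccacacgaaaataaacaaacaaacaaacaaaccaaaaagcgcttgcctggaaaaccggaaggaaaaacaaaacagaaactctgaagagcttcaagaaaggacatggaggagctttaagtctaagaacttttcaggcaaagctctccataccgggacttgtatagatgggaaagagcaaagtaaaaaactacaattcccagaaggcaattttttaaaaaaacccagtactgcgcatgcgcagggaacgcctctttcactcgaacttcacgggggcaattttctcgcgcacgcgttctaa
Mthfd2, chr6:83317555-83317854, minus strand: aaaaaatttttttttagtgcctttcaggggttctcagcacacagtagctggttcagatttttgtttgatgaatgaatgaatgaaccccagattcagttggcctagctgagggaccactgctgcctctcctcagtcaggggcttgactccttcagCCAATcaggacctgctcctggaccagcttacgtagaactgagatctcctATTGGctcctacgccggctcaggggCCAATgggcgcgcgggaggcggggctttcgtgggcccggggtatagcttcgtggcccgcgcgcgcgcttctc

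All 10 enzymes had a promoter in the RefSeq table, with 2 start sites for *Psat1*, so 11 windows were searched. The ATF4 composite element was found in 1 of the 11, that of *Asns*, as TGATGAAA starting 23 bases before the start site. Of 32851 promoters of the same length in the table, 3.97% held this motif. The E box was found in 1 of the 11, in *Aldh18a1* 59 bases before the start, against 7.15% of all promoters, and the cAMP response element in 0 of the 11, against 1.79%. CCAAT boxes were found in 6 of the 11 windows, against 37.4% of all. *Psat1* and *Mthfd2* had 3 each in the windows shown, the second *Psat1* window had 0, and *Shmt2* had 0 of these motifs. The MYB motif (AACNGNC), the element of the meiotic regulator A-MYB, was found in 3 of the 11, those of *Phgdh*, *Shmt1* and *Aldh18a1*, against 32.8% of all. These counts describe letters in a window and not binding.

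The serine steps differed widely in level. *Phgdh*, the gene of the first enzyme, lies on chromosome 3 (98313170 to 98339990, minus strand, GRCm38). Its level was 0.742 and 0 TPM in Ctrl and 0.515 and 0.163 TPM in AZ20, from read counts of 14, 0, 14 and 4. All libraries were low and the conditions overlapped. With 0 reads in Ctrl replicate 2, the exact Poisson 95% interval reaches 3.69 reads, which covers counting error only. A pseudogene, *Phgdh-ps1*, is annotated on chromosome 7, and the authors kept uniquely aligned reads.

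*Psat1*, the aminotransferase of the second step, lies on chromosome 19 (15904678 to 15947337, minus strand). Its level was 19.3 and 22.5 TPM in Ctrl and 11.8 and 11.7 TPM in AZ20, with 383 to 647 reads in each library. Both AZ20 libraries were below both Ctrl libraries, and the AZ20 mean was 56.4% of the Ctrl mean. On the scale of log2(TPM + 1) AZ20 minus Ctrl was -0.77 (standard error 0.22), with -0.66 in pair 1 and -0.89 in pair 2. The spread between mice was small for this gene, since the AZ20 libraries differed by 0.01 and the Ctrl libraries by -0.22 on this scale. In Ctrl replicate 1, the only Ctrl library with *Phgdh* reads, the TPM of *Psat1* was 26.0 times that of *Phgdh*.

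*Psph*, the phosphatase that releases serine, lies on chromosome 5 (129765558 to 129787449, minus strand). It had 27.2 and 22.7 TPM in Ctrl and 27.9 and 15.7 TPM in AZ20. The conditions overlapped, because AZ20 replicate 1 was the highest of all libraries and AZ20 replicate 2 the lowest. Its difference of log2(TPM + 1) was -0.23 (standard error 0.30), and it was 0.16 without AZ20 replicate 2 and -0.63 without AZ20 replicate 1. Exons of *Psph* share 452 bases with *Cct6a*, a chaperonin gene on the other strand with 83.6 to 108 TPM, so reads from this stretch cannot be told apart where strand is not used.

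The hydroxymethyltransferases showed different values with AZ20. *Shmt1* (chromosome 11, 60788104 to 60811718, minus strand), the cytosolic enzyme, had 6.58 and 9.70 TPM in Ctrl and 6.29 and 6.75 TPM in AZ20. The conditions overlapped, and the Ctrl libraries lay farther apart than the AZ20 libraries. The log2(TPM + 1) difference was -0.26 (standard error 0.27) and -0.01 without Ctrl replicate 2. *Shmt2* (chromosome 10, 127517123 to 127522444, minus strand), the mitochondrial enzyme, had 7.74 and 9.78 TPM in Ctrl and 6.18 and 4.60 TPM in AZ20. Both AZ20 libraries were below both Ctrl libraries, with a mean at 61.5% of Ctrl. On the log2(TPM + 1) scale the difference was -0.62 (standard error 0.27), with -0.28 in pair 1 and -0.95 in pair 2. The ratio of *Shmt2* to *Shmt1* TPM within a library was 1.18 and 1.01 in Ctrl and 0.981 and 0.680 in AZ20, which did not overlap, although the lowest Ctrl and the highest AZ20 ratio were close. Exons shared with genes on the other strand were 184 bases with *Smcr8* for *Shmt1* and 32 bases with *Ndufa4l2* for *Shmt2*.

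Of the *Mthfd* genes, *Mthfd2* was abundant and the others were low. *Mthfd2* (chromosome 6, 83305691 to 83325908, minus strand), the mitochondrial dehydrogenase and cyclohydrolase, had 31.1 and 46.8 TPM in Ctrl and 25.3 and 29.6 TPM in AZ20. The groups did not overlap, but the Ctrl libraries lay farther apart than the lower Ctrl library and the higher AZ20 library. AZ20 minus Ctrl on the log2(TPM + 1) scale was -0.46 (standard error 0.25), and the pairs gave -0.29 and -0.64. Leaving out Ctrl replicate 2 gave -0.18, and leaving out Ctrl replicate 1 gave -0.75. *Mthfd2l*, its paralog, had 3.09 and 3.21 TPM in Ctrl and 2.21 and 2.38 TPM in AZ20. The ratio of *Mthfd2* to *Mthfd2l* was 10.1 and 14.6 in Ctrl and 11.5 and 12.4 in AZ20, so the ranges overlapped.

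*Mthfd1* (chromosome 12, 76255298 to 76319803, plus strand), the trifunctional cytosolic enzyme, was the only tested member that was higher with AZ20 in the fit. It had 1.19 and 1.17 TPM in Ctrl and 2.81 and 1.81 TPM in AZ20, from 40, 45, 136 and 79 reads. Both AZ20 libraries were above both Ctrl libraries, and they lay farther apart than the Ctrl libraries. The difference of log2(TPM + 1) was 0.58 (standard error 0.32), with 0.80 and 0.37 in the pairs. It was 0.36 without AZ20 replicate 1 and 0.92 with voom on the recovered reads. *Mthfd1l* (chromosome 10, 3973118 to 4167081, plus strand), the mitochondrial formate-releasing enzyme, was seen in Ctrl replicate 1 with 5 reads and in AZ20 replicate 2 with 3 reads, and had 0 in the others, so no difference was detectable at this depth. The ratio of *Mthfd2* to *Mthfd1* TPM was 26.1 and 39.9 in Ctrl and 9.00 and 16.3 in AZ20, and did not overlap. The mitochondrial enzymes *Shmt2*, *Mthfd2* and *Mthfd1l* summed to 38.9 and 56.6 TPM in Ctrl and 31.5 and 34.2 TPM in AZ20, whereas the cytosolic *Shmt1* and *Mthfd1* summed to 7.77 and 10.9 TPM in Ctrl and 9.11 and 8.56 TPM in AZ20, with overlap.

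**Figure D2:**
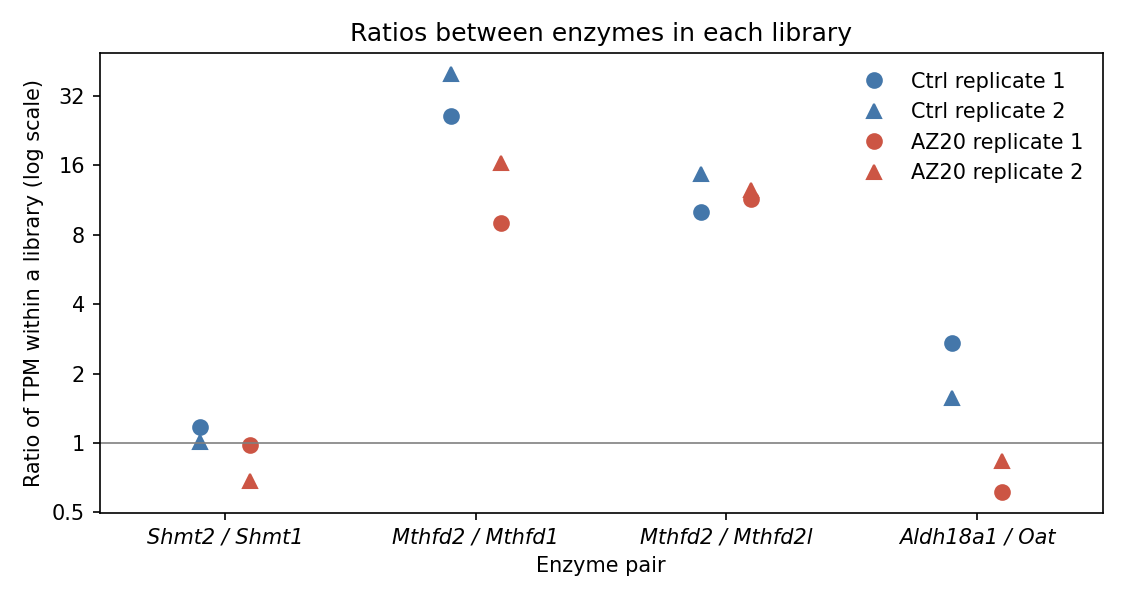
Ratios of TPM between pairs of enzyme genes within each library, on a log axis with a line at 1. Blue points are Ctrl and red points are AZ20, circles for replicate 1 and triangles for replicate 2. The ratios of *Shmt2* to *Shmt1*, *Mthfd2* to *Mthfd1* and *Aldh18a1* to *Oat* are lower in both AZ20 libraries than in both Ctrl libraries, and those of *Mthfd2* to *Mthfd2l* overlap.

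*Aldh18a1* (chromosome 19, 40550257 to 40588463, minus strand), the synthase of the proline precursor, had 18.3 and 16.2 TPM in Ctrl and 7.04 and 11.8 TPM in AZ20, with 361 to 659 reads in each library. Both AZ20 libraries were below both Ctrl libraries, with a mean at 54.7% of Ctrl. The log2(TPM + 1) difference was -0.84 (standard error 0.28), the lowest of the 8 tested enzymes, and the pairs gave -1.26 and -0.43. It was -0.51 without AZ20 replicate 1. *Oat*, which links the same intermediate to ornithine, had 6.71 and 10.4 TPM in Ctrl and 11.5 and 14.1 TPM in AZ20 (log2 difference 0.55, standard error 0.28, limma adjusted p = 0.664). The ratio of *Aldh18a1* to *Oat* was 2.72 and 1.56 in Ctrl and 0.614 and 0.836 in AZ20. *Pycr1* and *Pycrl*, reductases of the last step to proline, stayed under 1 TPM in each library.

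*Asns* (chromosome 6, 7675169 to 7693254, minus strand), the asparagine synthetase, had 1.59 and 1.12 TPM in Ctrl and 0.678 and 0.316 TPM in AZ20. These values rest on 31, 25, 19 and 8 reads, and the exact Poisson 95% interval of the lowest library, AZ20 replicate 2, is 3.45 to 15.8 reads. The groups did not overlap, and the AZ20 mean was 36.6% of the Ctrl mean, the lowest share among the 8 tested enzymes. *Asns* passed the filter, a mean above 1 TPM, only through Ctrl, so a low AZ20 share goes with its having been tested. The difference of log2(TPM + 1) was -0.66 (standard error 0.34), with -0.63 and -0.69 in the pairs. This scale understates the change of a low gene, and the log2 difference was -1.34 with a pseudocount of 0.1 and -1.49 with voom on the recovered reads. *Asrgl1*, which breaks down asparagine, had 568 to 846 TPM and was 473 and 724 times *Asns* in Ctrl and 1247 and 1794 times in AZ20.

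**Figure D3:**
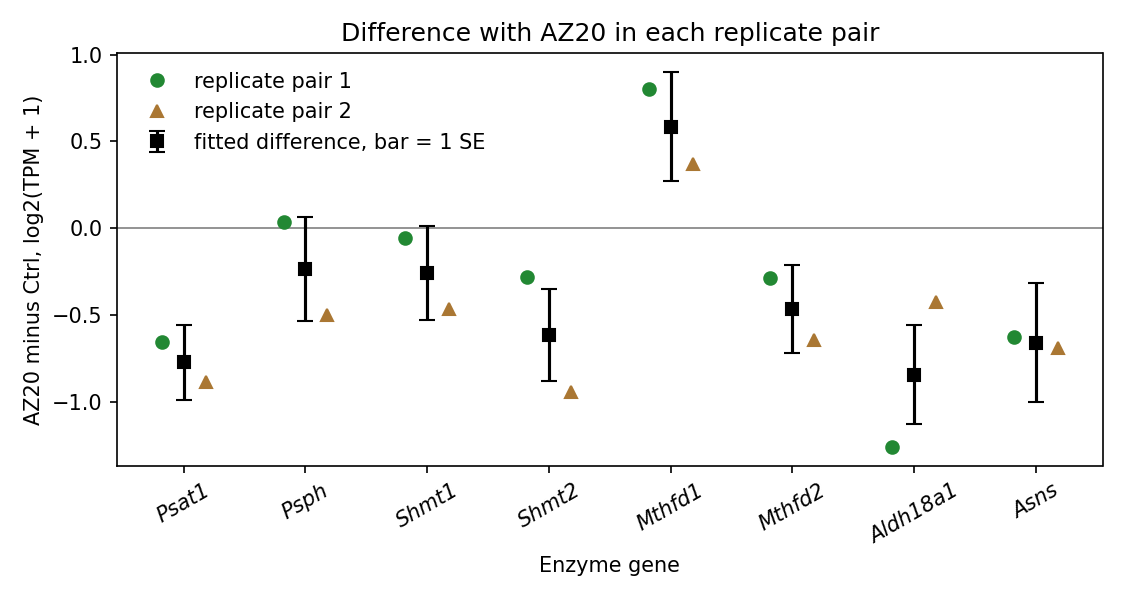
AZ20 minus Ctrl on the log2(TPM + 1) scale for the 8 tested enzymes. Black squares are fitted differences with bars of 1 standard error, green circles the first replicate pair and brown triangles the second. *Psat1* (-0.66 and -0.89) and *Asns* (-0.63 and -0.69) have pairs close together, and those of *Aldh18a1* (-1.26 and -0.43) and *Shmt2* (-0.28 and -0.95) lie apart.

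The 10 enzymes together summed to 114 and 130 TPM in Ctrl and 88.6 and 82.5 TPM in AZ20. Of the 8 tested, 7 were below 0 in the fit, 6 were lower in both replicate pairs, and the median difference of log2(TPM + 1) was -0.54. Over all 10316 tested genes 40.2% were below 0, 19.4% were lower in both pairs and the median was 0.07. The groups did not overlap and were lower with AZ20 for 5 of the 8 (*Psat1*, *Shmt2*, *Mthfd2*, *Aldh18a1* and *Asns*), against 11.7% of all tested genes, and higher for 1 (*Mthfd1*), against 26.4%. *Asns*, which is in each of these counts of lower enzymes, passed the filter only through Ctrl, the condition where it was higher. With a threshold of a 2-fold change and an adjusted p under 0.05 in limma, 0 of the 8 were called, against 2.33% of all tested genes (2.28% higher and 0.0485% lower with AZ20). With the replicate block 0 of the 8 were called as well, against 4.33% of all, with 3 at an unadjusted p under 0.05 (13.3% of all). At an unadjusted p under 0.05, 2 of the 8 were lower (1.13% of all genes), and voom on the recovered reads called 0, against 2.27% of all, with 2 at an unadjusted p under 0.05 (8.86% of all). Voom with the block called 0, against 3.2% of all, with 4 at an unadjusted p under 0.05 (11.2% of all). Over the alternatives that kept every library, 2 to 4 enzymes had an unadjusted p under 0.05. Over all genes, 673 to 1371 of the 7042 to 16857 tested in these fits did. Because the members were picked with this contrast known, nothing is read from these counts. The Sertoli cell and endothelial marker sums given above were higher in both AZ20 libraries than in both Ctrl libraries. Of the 8 round spermatid markers, 7 were above 0 in the fit, against 6166 of all 10316 tested genes. In both replicate pairs 5 of the 8 were higher, against 3724 of all tested genes. Their median log2 difference was 0.62. The groups overlapped for every marker, so 0 of the 8 were higher without overlap, against 26.4% of all. *Tssk6*, above 0 in the fit, passed the filter only through AZ20. The part of these markers in the differences of the enzymes was not tested.

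The other genes of the neighbouring pathways were then examined, as lists by role that did not include the 10 enzymes. Of 110 such genes 54 were tested, and 0 were called in limma (2.33% of all tested genes). These genes also lie on autosomes, while that share includes the sex chromosomes. With the replicate block 1 was called, *Serinc5* (log2 difference 1.09, limma adjusted p = 0.0464), and voom with the block called 0 (adjusted p = 0.0666 for *Serinc5*). At an unadjusted p under 0.05, 1 was higher (*Serinc5*; 8.03% of all tested genes) and 1 was lower (*Apip*; 1.13%), and voom called 0, with 3 at an unadjusted p under 0.05. The median difference of log2(TPM + 1) was 0.04, with 30 of 54 above 0 and 24 below, against the median of 0.07 over all tested genes. Among the 54, *Nupr1* passed the filter only through Ctrl, and *Aldh1l1*, *P4ha1* and *Eif2ak4* only through AZ20. The direction of their differences goes with their having been tested. An exact permutation test of a single value, two-sided, cannot go below p = 0.333 with 2 libraries a group. The limma fit borrows its variance across genes, and a difference that was not called is not shown to be absent.

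**Figure D4:**
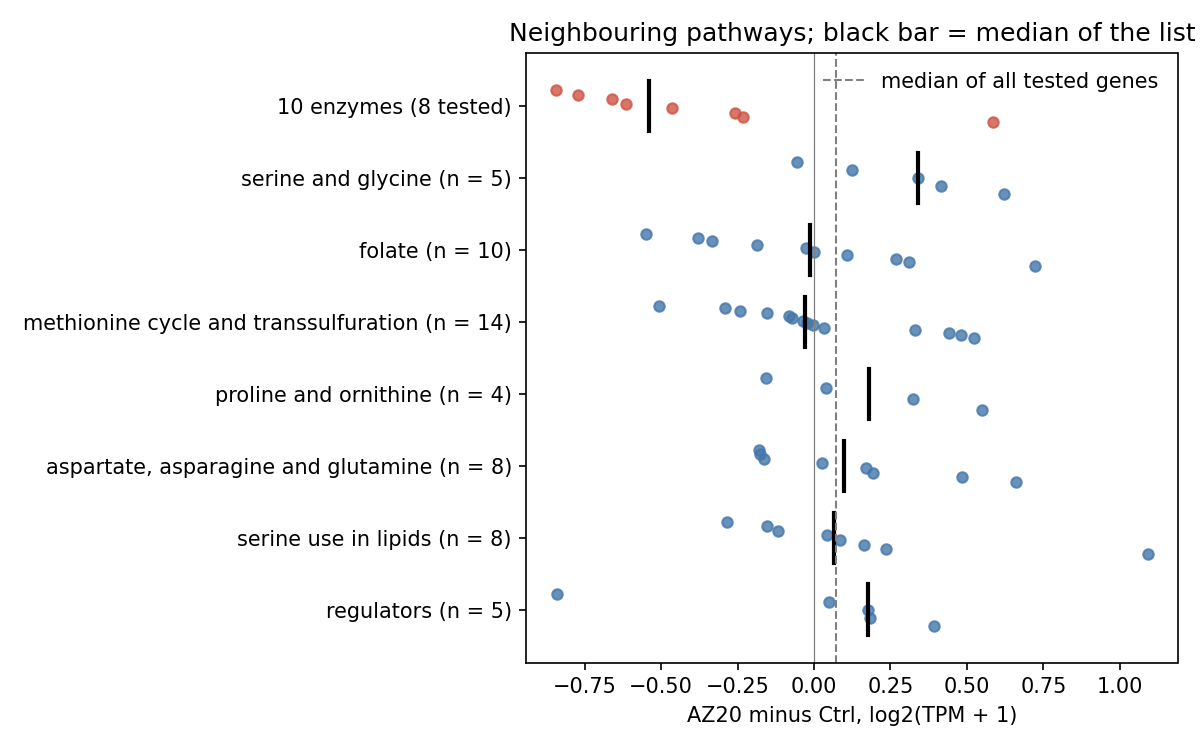
AZ20 minus Ctrl on the log2(TPM + 1) scale for the 8 tested enzymes (red) and for tested genes of 7 neighbouring lists (blue). Each point is a gene, black bars are list medians, and the dashed line is the median of all tested genes, 0.07. The enzymes have a median of -0.54, and the medians of the other lists lie between -0.03 and 0.34.

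Of the 15 serine and glycine genes, 5 were tested, with a median of 0.34. *Tdh*, threonine dehydrogenase, which yields glycine in mice, had 2.32 and 2.44 TPM in Ctrl and 3.99 and 4.42 TPM in AZ20 (log2 difference 0.62, standard error 0.27, limma adjusted p = 0.555). *Srr*, serine racemase, had a difference of 0.41 (limma adjusted p = 0.766). *Gldc*, the decarboxylase of the glycine cleavage system, was below the filter with 0.262 and 0.344 TPM in Ctrl and 0.745 and 0.685 TPM in AZ20, whereas *Dld*, shared with other dehydrogenase complexes, had 254 to 297 TPM. *Sfxn1*, a mitochondrial serine carrier, had 1 read in AZ20 replicate 1 and 0 in the other libraries.

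Of the 22 folate genes, 10 were tested, with a median of -0.01. *Slc25a32*, the mitochondrial folate carrier, had 3.77 and 7.21 TPM in Ctrl and 3.32 and 3.23 TPM in AZ20 (log2 difference -0.55, standard error 0.33, limma adjusted p = 0.727). The groups of *Mthfd2l* (log2 difference -0.33, limma adjusted p = 0.816) did not overlap either, and *Mthfs* was at -0.38 (limma adjusted p = 0.785). *Ggh*, which trims folate polyglutamates, was at 0.72 with a standard error of 0.51 (limma adjusted p = 0.779), and *Aldh1l1* and *Mtfmt* were at 0.31 and 0.27. *Tyms*, thymidylate synthase, had 5, 0, 1 and 0 reads, in the order Ctrl replicates 1 and 2 and AZ20 replicates 1 and 2. *Atic* and *Slc19a1* were listed at 0.

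Of the 20 genes of the methionine cycle and transsulfuration, 14 were tested, with a median of -0.03. *Apip*, of the methionine salvage pathway, had 362 and 288 TPM in Ctrl and 233 and 221 TPM in AZ20 (log2 difference -0.51, standard error 0.17, limma adjusted p = 0.395). *Mmachc* and *Mmadhc*, which handle cobalamin, were at -0.29 and -0.24, and *Mat2b*, *Mtrr* and *Ahcy* were at 0.52, 0.44 and 0.33, with limma adjusted p of 0.574 or more. Of the 13 proline and ornithine genes, 4 were tested, with a median of 0.18. Beside *Oat*, *P4ha1*, a prolyl hydroxylase subunit, was at 0.32 (limma adjusted p = 0.860). The proline-degrading *Prodh* was listed at 0, and *Aldh4a1* had 0.0775 to 0.697 TPM.

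Of the 16 genes of aspartate, asparagine and glutamine, 8 were tested, with a median of 0.10. *Glud1*, glutamate dehydrogenase, was at 0.66 (standard error 0.28, limma adjusted p = 0.556), and *Gfpt1*, of hexosamine synthesis, at 0.17 (limma adjusted p = 0.885). Of the 13 regulators, 5 were tested. *Atf4* had 28.0 and 31.7 TPM in Ctrl and 38.8 and 40.0 TPM in AZ20, where both libraries were above both Ctrl libraries (log2 difference 0.39, standard error 0.19, limma adjusted p = 0.655). *Ddit3* and *Eif2ak4*, a partner of the stress response and the kinase that senses uncharged tRNA, were at 0.18 each (limma adjusted p = 0.827 and 0.933). *Nupr1*, a stress-induced cofactor, was the only one of the 5 tested regulators below 0 (log2 difference -0.84, standard error 0.49, limma adjusted p = 0.722), with 1.42 and 2.35 TPM in Ctrl and 1.54 and 0 TPM in AZ20, from 17 reads or fewer, so the conditions overlapped. It passed the filter only through Ctrl, so a lower AZ20 mean goes with its having been tested. *Trib3*, *Cebpb*, *Myc* and *Mycn* had 0 reads in every library.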

How the data were processed

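RNA-seq was done on 2 Ctrl and 2 AZ20 libraries. Per the labels and methods, the authors trimmed paired reads of 150 bp with Trimmomatic (0.39), aligned them to GRCm38/mm10 with STAR (2.5.4b) keeping unique alignments, counted them with featureCounts (2.0.1) on the UCSC refGene annotation and deposited TPM computed from the counts. A total of 92 blank lines were left out.

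Genes whose TPM averaged more than 1 in at least one condition were fitted as log2(TPM + 1) with limma (3.58.1, R 4.3.3), with an intensity trend and no replicate term, and Benjamini-Hochberg adjustment over all tested genes. The authors used DESeq2 on counts, which were not used here. Reads were recovered as the smallest whole numbers that explain the TPM of a gene in all libraries, which gave whole reads, within 0.02 of a read, for 16857 of 16857 genes above 0. Large whole numbers were allowed, so an abundant gene can be fitted by coincidence, and this count is no check of the reads. A common factor cannot be seen in TPM, so it was set from RefSeq-supported exon lengths of GENCODE M21 where the lengths then matched within 5%, for 2223 genes, *Phgdh* among them, whose reads were doubled. The read totals depend on this step. After it, the lengths implied by the recovered reads matched the exon lengths within 5% for 5524 of 8100 genes checked (68.2%). They did not match for *Psat1* (2491 against 2936 bases), *Psph* (1537 against 1733) and *Shmt1* (2065 against 2858). The fit and the recovery were tested on simulated data. Cells of a mouse were split between conditions per the methods, and same-numbered libraries deviated together (r = 0.23 across genes).

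The members and lists were chosen with earlier results of these data known. Named genes are the members, called genes of each list, up to 3 rises and 3 falls of each list shared by both pairs, and genes next to the members in their pathways; some of these are not reported here. Others, such as *Asrgl1*, *Nupr1*, genes at or near 0 and exon neighbours, were named after their values were seen. Lists also covered spermatogonia, macrophages and peritubular myoid cells, whose markers summed to 70.9 to 101, 0.659 to 1.47 and 2.18 to 4.60 TPM in each library. Alternatives were a pseudocount of 0.1, no filter or a mean TPM above 5, quantile and median-ratio scaling, the replicate block, no trend, voom on recovered reads, voom with the replicate block and leaving out each library. Python 3.11.15 was used for other values.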

Additional observations from a re-analysis of the deposited data

How the results depend on the processing

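The median difference of the tested enzymes stayed below 0 under all 13 alternatives, at -0.41 to -0.63 when a library was left out, and 0 enzymes were called under any of them. Of 102 single-enzyme values under alternatives, 89 were below 0. Those above 0 were *Mthfd1*, under 12 alternatives, and *Psph* without AZ20 replicate 2. The enzymes were picked with this contrast known and every fit reuses the same libraries, so these values are not independent support. Quantile normalization moved the median of all genes by -0.14. With the median of the neighbouring genes at 0.04 by the reported fit, it was -0.13 after quantile normalization, -0.040 after median-ratio scaling, and -0.0033 to 0.11 when a library was left out. With the replicate block, 1 neighbouring gene was called, *Serinc5*, with 2.39 and 0.880 TPM in Ctrl and 3.67 and 5.19 TPM in AZ20 (log2 difference 1.09, limma adjusted p = 0.0464, against 0.395 without the block and 0.0666 with voom and the block). Over all genes, 235 were called higher and 5 lower, against 424 and 23 with the replicate block, and the block changed no other call among the enzymes and the neighbouring genes. Called lower was 1 gene with no expression filter and 1 with voom. Without a library, 0 to 200 genes were called higher and 0 to 1 lower, with 0 of either kind without an AZ20 library (871 and 737 genes at an unadjusted p under 0.05 without AZ20 replicates 1 and 2), where the lone AZ20 sample was assumed to vary like the Ctrl samples. The causes were not tested. *Asns*, *Phgdh* and *Mthfd1l* rest on 31 reads or fewer in each library, which limits their precision.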

Other observations

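Serine is also consumed in the synthesis of sphingolipids and phosphatidylserine. Of 11 genes of this use, 8 were tested, with a median difference of log2(TPM + 1) of 0.06, and 0 were called in limma, with 1 higher at an unadjusted p under 0.05. *Sptlc2*, a subunit of serine palmitoyltransferase, had 18.2 and 21.5 TPM in Ctrl and 19.9 and 24.9 TPM in AZ20 (log2 difference 0.16, limma adjusted p = 0.902). *Sptlc1*, its partner subunit, had 7.60 and 6.11 TPM in Ctrl and 7.76 and 3.71 TPM in AZ20, and *Sptlc3* was listed at 0. The phosphatidylserine synthases *Ptdss1* and *Ptdss2* had 10.6 to 17.0 and 47.7 to 53.1 TPM, with overlap between conditions. *Serinc5*, a membrane protein named as a serine incorporator, had 54 to 128 reads in Ctrl and 284 to 362 in AZ20, with both AZ20 libraries above both Ctrl libraries, and *Serinc3* was at 0.09.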
